A study of Homo sapiens with 4 samples.

Results

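The miR-23/27/24 miRNAs were followed in HFE-145, an immortalised line of human gastric epithelium, both in cells carrying the vector and in cells overexpressing YAP5SA, an active mutant of YAP, the transcriptional co-activator that the Hippo kinases hold in check. There were 2 samples in each group. The set was chosen by name as 10 of the 2039 mature miRNAs in the deposited table: hsa-miR-23a-3p, hsa-miR-27a-5p, hsa-miR-27a-3p and hsa-miR-24-2-5p from chromosome 19, hsa-miR-23b-3p, hsa-miR-27b-5p, hsa-miR-27b-3p and hsa-miR-24-1-5p from chromosome 9, hsa-miR-24-3p, which both loci encode, and hsa-miR-3074-5p, from the strand opposite miR-24-1. All 10 were found. The labels name no other agent, genotype or culture time, and do not state that the duplicates were grown separately, so each p-value covers no more than the spread of these samples, which may be technical.

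Small RNA-seq reads on mature miRNAs numbered from 136903 (YAP5SA replicate 1) to 217235 (vector replicate 1) per library. Replicates were not copies of one library: over degrees of freedom, chi-square was 20.5 for the vector pair and 10.1 for the YAP5SA pair. The 8 epithelial markers of a fixed list summed to 29397 and 25853 CPM in vector cells against 12292 and 15350 CPM in YAP5SA cells. The 8 embryonic stem markers, also a fixed list, summed to 345762 and 392435 CPM in vector cells against 252387 and 379166 CPM. Most of that sum was miR-372, at 327566 and 375811 CPM in vector cells against 225298 and 354741 CPM in YAP5SA cells. On the same list miR-371a-5p and miR-302b-3p lay higher in both YAP5SA libraries than in both vector libraries, and miR-373-3p overlapped. Every marker list was fully present among the deposited miRNAs, so presence does not tell cell types apart. Levels are given as CPM, counts set to a common library size, after TMM scaling, which places the bulk of fold changes near 0. The labelled overexpression could not be checked in miRNA counts.

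The clusters are paralogs. Each is transcribed as a single primary RNA that is trimmed into hairpins, and each hairpin yields a 5p and a 3p arm. miR-23 is known as a repressor of glutaminase, miR-24 as a repressor of the histone H2AX, and miR-27 as a repressor of the adipogenic factor PPARG. The clusters are widely expressed and are best known from endothelial and haematopoietic cells. On GRCh38.p14 the chromosome 19 cluster covers 373 bases, at chr19:13836287-13836659 on the minus strand, where its 3 hairpins overlap exons of the long non-coding RNA gene AC020916.1 in GENCODE 29. The chromosome 9 cluster covers 881 bases, at chr9:95085208-95086088 on the plus strand, where MIR23B and MIR27B lie in an intron of C9orf3 and MIR24-1 overlaps an exon of it. MIR3074 lies on the minus strand over MIR24-1.

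The mature sequences from RefSeq (GRCh38.p14) show how closely the paralogs match. Capitals mark the seed, bases 2 to 8, which sets most of target pairing.
miR-23a-3p: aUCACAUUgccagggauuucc
miR-23b-3p: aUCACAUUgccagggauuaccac
miR-27a-3p: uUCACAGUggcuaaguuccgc
miR-27b-3p: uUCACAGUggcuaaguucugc
miR-24-3p: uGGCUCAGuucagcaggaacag
miR-27a-5p: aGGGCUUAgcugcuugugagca
miR-27b-5p: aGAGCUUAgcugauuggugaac
miR-24-2-5p: uGCCUACUgagcugaaacacag
miR-24-1-5p: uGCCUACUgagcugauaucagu
miR-3074-5p: gUUCCUGCugaacugagccag
The seed is shared by the 3p arms of miR-23a and miR-23b, by those of miR-27a and miR-27b, and by the 5p arms of miR-24-2 and miR-24-1, but not by the 5p arms of miR-27a and miR-27b. Over the bases in the deposited table, counted from 1 at the 5′ end, miR-23b-3p differs from miR-23a-3p by U19A alone and miR-27b-3p differs from miR-27a-3p by C19U alone, after 18 identical bases. The table lists 21 bases of miR-23b-3p, the first 21 of the 23 in RefSeq. The 5p arms differ more: 8 of 22 positions between miR-27a-5p and miR-27b-5p, the first being G3A, and 6 of 22 between miR-24-2-5p and miR-24-1-5p, the first being A16U. The sources used here do not say how reads that fit both paralogs were assigned, so the split between miR-23a-3p and miR-23b-3p and between miR-27a-3p and miR-27b-3p is uncertain. miR-24-3p counts cannot be assigned to either locus.

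The cluster miRNAs made up 4.9997% and 4.33% of all counts in vector cells (replicates 1 and 2, the order used throughout) but 2.21% and 3.14% in YAP5SA cells. Both YAP5SA libraries lay below both vector libraries, and YAP5SA replicate 1 was the lowest. Nearly all of these reads came from 4 miRNAs. miR-27b-3p ranked 12th, miR-24-3p 17th, miR-27a-3p 20th and miR-27a-5p 23rd of 2039 by mean CPM, and together they took 4.86% and 4.19% of counts in vector cells against 2.11% and 3.01% in YAP5SA cells. The other 6 were much rarer, from rank 100 for miR-3074-5p to rank 764 for miR-24-1-5p. miR-23 was sparsely read beside its cluster partners, which are of nearly equal length (21 or 22 bases in the table): for each miR-23a-3p read there were 56.4 and 44.4 reads of miR-27a-3p in vector cells against 23.7 and 30.6 in YAP5SA cells. On chromosome 9 there were 48.0 and 58.0 reads of miR-27b-3p for each miR-23b-3p read in vector cells against 36.6 and 40.1 in YAP5SA cells. This partner ratio was lower in both YAP5SA libraries than in both vector libraries in each cluster, and it was not tested.

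**Figure D1:**
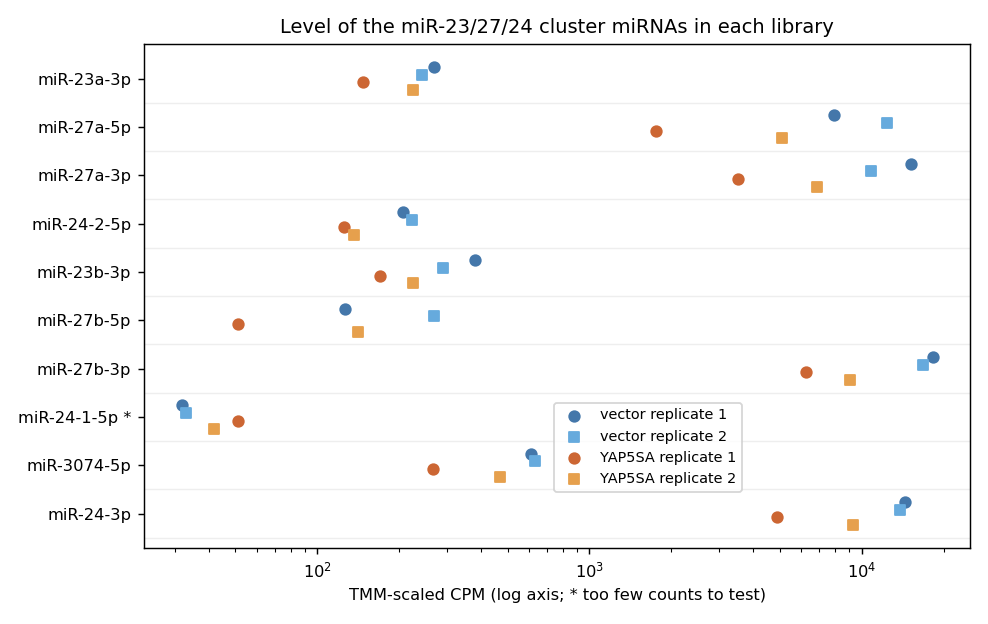
TMM-scaled CPM (log axis) of the 10 cluster miRNAs in each of the 4 libraries, with 1 point per library. YAP5SA points lie left of vector points without overlap for 8 miRNAs, overlap for miR-27b-5p and lie to the right for miR-24-1-5p, which had too few counts to test (5 to 9 reads per library).

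The study set YAP5SA against vector cells to find miRNAs that differ. miR-27b-3p fell 2.296-fold and was the only cluster miRNA called. It was read 3458 and 2553 times in vector cells against 1097 and 1726 times in YAP5SA cells. Its level was 18270 and 16781 CPM in vector cells against 6231 and 9033 CPM in YAP5SA cells, so the groups did not overlap. The means were 17526 ± 1053 and 7632 ± 1981 CPM (SD, n = 2), and the fitted log2 fold change was -1.20 ± 0.29 (SE), at an adjusted p of 0.0336 by edgeR's quasi-likelihood test with Benjamini-Hochberg adjustment across 602 miRNAs. Of the 9 cluster miRNAs with enough counts to test, 1 was called lower and 0 higher. Among all 602 tested, 21 were called lower, or 3.49%, and 92 were called in either direction, or 15.3%. Other settings gave 2 of 9 against 1.99% of all tested with library totals, 3 against 4.98% with RLE size factors, 1 against 3.32% with the upper quartile, 4 against 7.31% with scaling from rarer miRNAs, 3 against 2.99% with DESeq2 and 4 against 5.65% with a replicate block. None of 9 was called with scaling from abundant miRNAs (0.664% of all tested), with limma-voom (1.66%) or at a mean of at least 100 CPM (0.317%), and none of 10 with no filter (0.688%) or at a mean of at least 10 CPM (0.0558%). Wherever members were called, the calls lay among miR-27b-3p, miR-27a-3p, miR-27a-5p and miR-24-3p as long as all 4 libraries were kept. Each of these 4 averaged above 1000 CPM, and 66 tested miRNAs were that abundant. Of those 66, 13 were called lower in the main fit, 9 with library totals and 22 with RLE size factors. The number was 13 with the upper quartile, 26 with scaling from rarer miRNAs, 13 with DESeq2 and 22 with a replicate block. It was 3 with scaling from abundant miRNAs, 9 with limma-voom, 4 with no filter and 1 at either CPM cutoff. Abundant miRNAs were thus called lower more often than all tested.

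The call on miR-27b-3p depended on the scaling, the filter and the tool. Without vector replicate 1 its log2 fold change was -1.42 and without vector replicate 2 it was -1.60, both further from 0 than in the main fit. Such fits leave 1 vector sample, so they cannot show whether the call rests on a single vector library. Library totals in place of TMM gave -0.72 (edgeR, adjusted p = 0.0559) and scaling from abundant miRNAs gave -0.48 (edgeR, adjusted p = 0.13). miR-27b-3p was also not called with no filter (edgeR, adjusted p = 0.126) or by limma-voom (adjusted p = 0.0508). Over the 16 alternatives its adjusted p ranged from 4.54e-08 to 0.646, and 7 of them called it.

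miR-27a-3p, which carries the same seed from chromosome 19, had 2874 and 1642 reads in vector cells against 617 and 1314 reads in YAP5SA cells. Its level was 15185 and 10793 CPM in vector cells against 3505 and 6877 CPM in YAP5SA cells, without overlap. The log2 fold change was -1.32 ± 0.38 (SE) and missed the threshold, at an edgeR adjusted p of 0.0542. miR-27a-5p, the opposite arm of that hairpin, had 1492 and 1886 reads in vector cells against 308 and 976 in YAP5SA cells, or 7883 and 12397 against 1749 and 5108 CPM. The groups did not overlap, yet each varied widely within itself. Its log2 fold change was the furthest from 0 among the 9, at -1.56 ± 0.50 (SE), but did not pass (edgeR, adjusted p = 0.0752). Over the alternatives the adjusted p of miR-27a-3p ranged from 2.53e-10 to 0.676 and that of miR-27a-5p from 2.42e-14 to 0.546, with 7 of 16 calling each.

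miR-24-3p, the product of both loci, had 2730 and 2110 reads in vector cells against 860 and 1770 reads in YAP5SA cells. Its level was 14424 and 13870 CPM in vector cells against 4885 and 9263 CPM in YAP5SA cells. The vector libraries were close to each other and the YAP5SA libraries far apart, with no overlap between groups. The log2 fold change was -0.9996 ± 0.34 (SE) and did not pass, at an edgeR adjusted p of 0.0883.

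The rarer miRNAs had fewer reads, and none passed. Those tested, other than miR-27b-5p, had smaller fold changes than miR-24-3p. miR-23b-3p had 72 and 44 reads in vector cells against 30 and 43 in YAP5SA cells, with a log2 fold change of -0.76 ± 0.402 (SE), at an edgeR adjusted p of 0.244. miR-23a-3p had 51 and 37 reads in vector cells against 26 and 43 in YAP5SA cells, with -0.46 ± 0.42 (SE), at an edgeR adjusted p of 0.501. The CPM ranges did not overlap for either, but the raw counts of miR-23a-3p did.
miR-24-2-5p, the passenger arm of the chromosome 19 copy of miR-24, had 39 and 34 reads in vector cells against 22 and 26 in YAP5SA cells, with a log2 fold change of -0.71. miR-27b-5p had 24 and 41 reads in vector cells against 9 and 27 in YAP5SA cells, with a log2 fold change of -1.02, and its CPM ranges overlapped. miR-24-1-5p, the passenger arm of the chromosome 9 copy, was the exception in direction. It had 6 and 5 reads in vector cells against 9 and 8 in YAP5SA cells, or 32.3 ± 0.82 against 46.5 ± 6.54 CPM (SD, n = 2). It did not pass the filter on low counts, and without that filter its log2 fold change was 0.07 (edgeR, adjusted p = 0.968).

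All 9 tested cluster miRNAs had a log2 fold change under 0, with a median of -0.9996 against 0.11 over all 602 tested. Abundant miRNAs as a class lay low in these libraries: among the 66 with a mean of at least 1000 CPM, 55 had a log2 fold change under 0, and their median was -0.68. The cluster median thus differed by -1.11 from that of all tested miRNAs and by -0.32 from that of the abundant ones. YAP5SA levels lay below vector levels without overlap for 8 of the 9, against 26.6% of all tested miRNAs and 63.6% of the abundant ones. As a share of the library total, without TMM scaling, they did so for 7 of the 9, against 13.1% of all tested. In sum the epithelial marker miRNAs moved in the same direction, with 4 of 7 tested called lower and 0 higher. miR-375, on that list, did not, with a log2 fold change of 0.11 (edgeR, adjusted p = 0.88). Of all tested miRNAs 3.49% were called lower, and of the 66 abundant ones 13. Of the 4 embryonic stem markers tested, 0 were called in either direction. The part of the epithelial markers in the result was not tested.

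**Figure D2:**
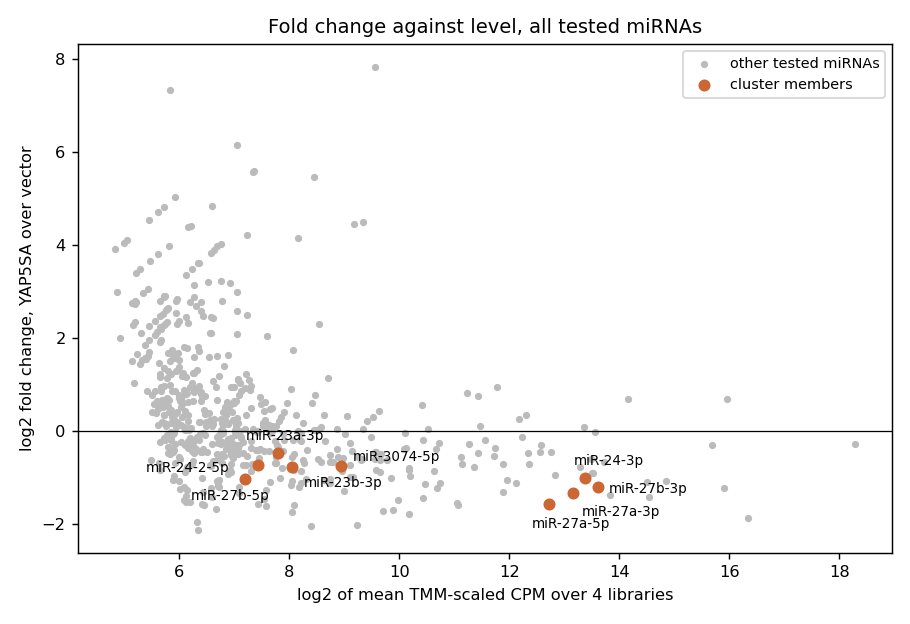
Log2 fold change of YAP5SA over vector (y axis) against the log2 of mean CPM (x axis) for the 602 tested miRNAs, with the 9 tested cluster miRNAs in orange. The cluster miRNAs sit between -0.46 and -1.56, and most abundant miRNAs, at the right, also lie below 0.

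How far the cluster lay below 0 depended on the scaling and on single libraries. Its median log2 fold change was -0.55 under library totals, -0.31 when scaled from abundant miRNAs and -1.22 with scaling from rarer ones. These scalings moved all miRNAs nearly alike, with the median over all tested at 0.61, 0.83 and -0.11 in the same order. The cluster median differed from that of all tested miRNAs by -1.16, -1.13 and -1.10 in the same order, and by -0.498 on the authors' normalized values. The direction itself was reversed for miR-23a-3p, at 0.012 (library totals) and 0.25 (scaling from abundant miRNAs), and for miR-24-2-5p, at 0.018 in the latter case. Without YAP5SA replicate 2 all 9 were called lower with a median of -1.91 over 10 tested, while 16.8% of all miRNAs tested were then called lower. Without YAP5SA replicate 1, the smallest library, 3 were called (miR-27b-3p, miR-27a-3p and miR-27a-5p) with a median of -0.71, against 8.39% of all tested. That median differed from the median of the abundant miRNAs by -0.00033. Without YAP5SA replicate 2 the abundant miRNAs also lay low, with a median of -1.40. The cluster median of that fit differed from it by -0.52. Without vector replicate 1 or 2, the cluster median was -1.16 and -1.17, against -0.95 and -1.07 for the abundant miRNAs. In such fits the lone sample of a group is assumed to vary like the other group, so no conclusion is drawn from their numbers of calls.

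**Figure D3:**
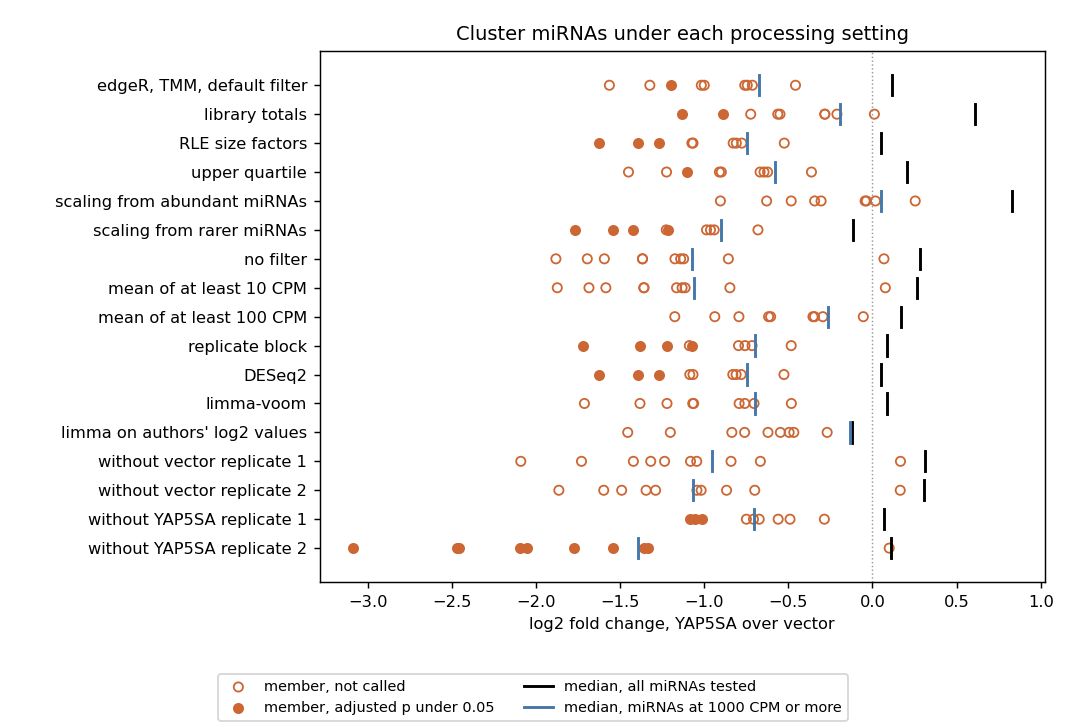
Log2 fold changes of the cluster miRNAs (circles, filled where adjusted p was under 0.05) under each processing setting, with the median of all tested miRNAs (black) and of those with a mean of at least 1000 CPM (blue). The cluster moves with the blue mark as settings change, lies closest to 0 when scaled from abundant miRNAs (median -0.31) and furthest without YAP5SA replicate 2 (-1.91).

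The authors' deposited table gave all 10 a fold change under 1, from 0.433 for miR-27b-5p to 0.843 for miR-24-3p. For 2 of the 10 the authors' deposited table had p under 0.05, miR-27b-3p (fold change 0.71, p = 0.0401) and miR-24-2-5p (fold change 0.563, p = 0.0269), against 5.05% of all 2039 with such a p and a fold change under 1. The authors' deposited table thus placed miR-24-1-5p lower, at 0.806, where the CPM computed from its raw counts was higher.

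Ratios between miRNAs of a single library do not depend on scaling between libraries, and they show how the paralogous clusters compare. With 2 samples against 2, the exact two-sided permutation test cannot give a p under 0.333, so no ratio could pass. Over the 10 ratios computed, the lowest adjusted p was 0.667. On chromosome 19 the 4 miRNAs other than miR-24-3p summed to 4456 and 3599 reads in vector cells against 973 and 2359 in YAP5SA cells. The 4 from chromosome 9 summed to 3560 and 2643 in vector cells against 1145 and 1804 in YAP5SA cells. There were thus 1.25 and 1.36 chromosome 19 reads per chromosome 9 read in vector cells, against 0.85 and 1.31 in YAP5SA cells. YAP5SA replicate 1 stood below the other 3 libraries, the other YAP5SA library lay within the vector range, and the groups overlapped. The mean log2 ratio changed by -0.31 (exact permutation p = 0.667), and by 0.0023 without YAP5SA replicate 1. This summed comparison was added after the data were seen. The sums mix arms that differed in opposite ways between the loci. In vector cells miR-27a-5p had 1492 and 1886 reads, where miR-27b-5p had 24 and 41. For each miR-27a-3p read there were 1.20 and 1.55 reads of miR-27b-3p in vector cells, against 1.78 and 1.31 in YAP5SA cells.

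For the miR-27 3p arms, miR-27a-3p took 45.4% and 39.1% of the reads of both in vector cells, with exact binomial 95% intervals of 44.2 to 46.6 and 37.7 to 40.6. Its shares in YAP5SA cells were 35.998% (33.7 to 38.3) and 43.2% (41.5 to 45.01). Replicates of each group differed beyond these intervals, which cover counting error only, and the groups overlapped. The mean log2 ratio of miR-27a-3p to miR-27b-3p differed by -0.16 between YAP5SA and vector cells, YAP5SA minus vector (exact permutation p = 0.667), a difference that changed sign without vector replicate 1 or without YAP5SA replicate 1. For the miR-23 3p arms, miR-23a-3p took 41.5% (32.7 to 50.7) and 45.7% (34.6 to 57.1) in the vector, and 46.4% (32.99 to 60.3) and 50.0% (39.02 to 60.98) in the YAP5SA libraries. The groups did not overlap, but every interval held the other libraries' values. The intervals are of single libraries and do not test the difference between groups, on which no conclusion is drawn.

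The passenger arms of miR-24 differ in sequence between the loci, so they can stand for each locus within a limit. The reverse complement of miR-3074-3p, from the opposite strand, matches miR-24-1-5p over 19 bases in a run. Strand use in counting is not given, so reads of miR-24-1-5p and miR-3074-3p cannot be told apart with certainty. miR-24-2-5p, from chromosome 19, had 6.5 and 6.8 reads per miR-24-1-5p read in vector cells, against 2.44 and 3.25 in YAP5SA cells. The ratio was lower in both YAP5SA libraries than in both vector libraries, with a mean difference of -1.18 on the log2 scale (exact permutation p = 0.333, the smallest possible). As a share of both, miR-24-2-5p held 86.7% (exact binomial 95% interval 73.2 to 94.9) and 87.2% (72.6 to 95.7) in the vector, and 70.97% (51.96 to 85.8) and 76.5% (58.8 to 89.3) in the YAP5SA libraries. These intervals overlap between groups, but they cover counting error in single libraries and do not test the difference in share. That difference rests on 5 to 9 reads of miR-24-1-5p per library.

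Arm use differed sharply between the miR-27 hairpins. For every 100 reads of miR-27a-3p there were 51.9 and 115 reads of miR-27a-5p in vector cells, against 49.9 and 74.3 in YAP5SA cells. For every 100 reads of miR-27b-3p there were 0.694 and 1.61 reads of miR-27b-5p in vector cells, against 0.82 and 1.56 in YAP5SA cells. The 5p to 3p ratio of miR-27a exceeded that of miR-27b in 4 of 4 libraries, by 5.93 ± 0.301 on the log2 scale (SD, n = 4; exact sign-flip permutation p = 0.125, the smallest that 4 libraries allow). Between groups the 5p to 3p ratio differed by -0.34 for miR-27a and 0.13 for miR-27b on the log2 scale, with exact permutation p = 0.667 and 1.0, and both changed sign when single libraries were left out. Within each group the replicate 2 library had the higher ratio: by 1.15 in the vector and 0.57 in YAP5SA cells for miR-27a, and by 1.198 and 0.88 for miR-27b, on the log2 scale. These gaps between replicates were larger than the differences between groups. The labels do not say what the replicate numbers share.

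**Figure D4:**
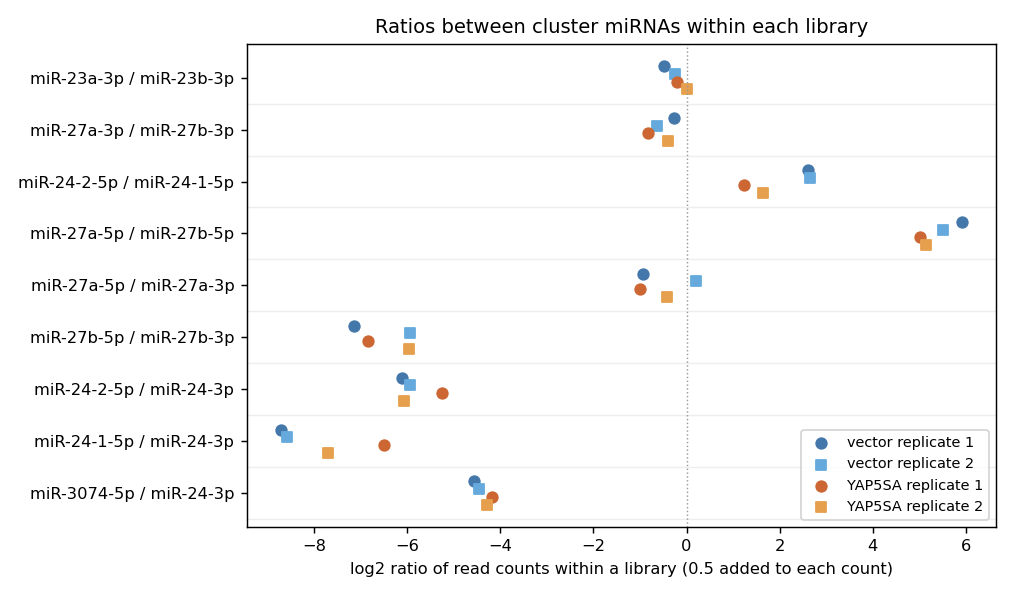
Log2 ratio of read counts within each library (0.5 added to each count) for paralog pairs, arm pairs and the opposite-strand pair, with 1 point per library. The miR-27a 5p to 3p ratio lies near 0 and that of miR-27b between -7.14 and -5.94 in the 4 libraries, while vector and YAP5SA points overlap in 4 of the 9 ratios shown.

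The miR-24 loci are shown as hairpins from RefSeq (GRCh38.p14), with mature arms in capitals, because the MIR24 copies share an arm and MIR3074 is read from the opposite strand of one of them.
MIR24-1: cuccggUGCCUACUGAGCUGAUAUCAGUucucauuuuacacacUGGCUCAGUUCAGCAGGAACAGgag
MIR24-2: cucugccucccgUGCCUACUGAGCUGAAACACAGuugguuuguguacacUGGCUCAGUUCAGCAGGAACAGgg
MIR3074: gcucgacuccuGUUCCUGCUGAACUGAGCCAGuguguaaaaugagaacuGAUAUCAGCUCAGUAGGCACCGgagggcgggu
MIR24-1 lies at chr9:95086021-95086088 on the plus strand, MIR24-2 at chr19:13836287-13836359 on the minus strand and MIR3074 at chr9:95086014-95086094 on the minus strand. The reverse complement of miR-3074-5p matches miR-24-3p over 20 bases in a run. miR-3074-5p had 115 and 96 reads in vector cells against 47 and 90 in YAP5SA cells, with a log2 fold change of -0.74 ± 0.39 (SE), at an edgeR adjusted p of 0.237. It made 4.21 and 4.55 reads per 100 reads of miR-24-3p in vector cells, against 5.47 and 5.08 in YAP5SA cells. The ratio was therefore narrow across the 4 libraries, and 0.27 higher on the log2 scale in YAP5SA cells, without overlap (exact permutation p = 0.333). On the authors' log2 values the direction was reversed, at -0.28. The sources used here do not say whether counting used strand, so reads of miR-24-3p and miR-3074-5p cannot be told apart with certainty.

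The remaining arms of the same hairpins were rare. miR-23b-5p had 27 and 26 reads in vector cells against 20 and 21 in YAP5SA cells (log2 fold change -0.48, adjusted p = 0.498, edgeR), and miR-3074-3p had 13 and 8 against 9 and 11 (-0.17, adjusted p = 0.844, edgeR). miR-23a-5p had 3 to 7 reads per library, too few to test. Outside the clusters, miR-23c and miR-130a-5p shared the seed of miR-23a-3p, with 3 to 4 and 5 to 24 reads per library, and neither had enough to test. No other miRNA in the table shared the seed of miR-24-3p, miR-27a-3p or miR-3074-5p. miR-128, best known from neurons, carries the miR-27 seed shifted by 1 base and fell, with 729 and 390 reads in vector cells against 190 and 204 in YAP5SA cells and a log2 fold change of -1.58 with an SE of 0.31 (edgeR, adjusted p = 0.0301).

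The miRNAs whose 4 levels ran closest to those of miR-27a-5p, miR-27a-3p, miR-27b-3p and miR-24-3p were sought among the other 62 with a mean of at least 1000 CPM. The nearest 3 were miR-148a-3p, the epithelial miR-200a-3p and the HOXB miRNA miR-10a-5p, at Euclidean distances of 0.305, 0.309 and 0.368 between centred log2 CPM profiles over 4 libraries. miR-10a-5p fell by 1.38 on the log2 scale (edgeR, adjusted p = 0.0301), and the log2 fold change was -1.08 for miR-148a-3p and -1.43 for miR-200a-3p, neither of which passed. These distances are of the same size as those of the cluster miRNAs from their own mean profile, which were 0.285 for miR-24-3p, 0.347 for miR-27a-3p, 0.358 for miR-27b-3p and 0.713 for miR-27a-5p. The summed endothelial markers, miR-126-3p and miR-126-5p, were at 26.4 and 98.6 CPM in vector cells against 170 and 62.8 CPM in YAP5SA cells, without the order of the cluster miRNAs. The 5 blood cell markers summed to 380 and 447 CPM in vector cells against 534 and 267 CPM in YAP5SA cells. Only 1 endothelial and 1 blood cell marker had enough counts to test, so no conclusion is drawn from these sums.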

How the data were processed

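Per the labels' protocols, total RNA was isolated with easy-BLUE and libraries were made with an NEB small RNA kit. The authors deposited raw read counts per mature miRNA, log2 values of a read count normalized by an unstated method, a fold change (a ratio of YAP5SA over vector) and a p-value of an unstated test. The submitters' processing notes name FastQC and hg19. The sources used here give no aligner, strand use, handling of multiple matches or miRNA version.

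The main test was edgeR 4.0.16 under R 4.3.3 (quasi-likelihood test, TMM scaling, default filter on low counts, group as the term, Benjamini-Hochberg over all 602 tested miRNAs, threshold 0.05). The SE was the log2 fold change over the square root of F. CPM are counts over the TMM-scaled size of the library. Within-library ratios used a pseudocount of 0.5 and exact permutation tests (SciPy 1.17.1). Intervals are exact binomial and cover counting error only. The steps were tested on simulated data. Alternatives used other scalings, filters, limma 3.58.1, DESeq2 1.42.0, a replicate block and each library left out. Cluster members, lists and tests were chosen with earlier results of these data known. All members are named, with other arms of their hairpins, seed sharers and the 3 nearest abundant profiles. Positions and sequences are RefSeq GRCh38.p14, matched by name.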

Additional observations from a re-analysis of the deposited data

How the results depend on the processing

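Of 9 cluster miRNAs tested, 1 was called lower by edgeR with TMM. The number was 2 under library totals, 3 with RLE size factors or DESeq2, 4 with scaling from rarer miRNAs and 0 with scaling from abundant miRNAs, no filter, a mean of at least 10 or 100 CPM, limma-voom or limma on the authors' log2 values. In none of these settings was a member called higher. The median log2 fold change moved beyond the spread between replicates under library totals (-0.55) and when scaled from abundant miRNAs (-0.31), and ranged from -1.91 to -0.71 without a library. Single directions turned for miR-23a-3p, at 0.012 (library totals) and 0.25 (scaling from abundant miRNAs), and for miR-24-2-5p, at 0.018 with the latter.

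Over all miRNAs, edgeR with TMM called 71 higher and 21 lower. Higher and lower calls numbered 147 and 12 under library totals, 163 and 4 when scaled from abundant miRNAs, 71 and 44 with scaling from rarer ones, 34 and 14 with no filter, 19 and 1 at a mean of at least 10 CPM, 25 and 1 at 100 CPM, 36 and 18 with DESeq2, 21 and 10 with limma-voom and 0 and 0 with limma on the authors' log2 values (129 at an unadjusted p under 0.05). Without a library it ranged from 1 to 124 higher and 0 to 159 lower. A looser filter tested more miRNAs, and a fit without a library has fewer samples; otherwise the cause was not tested.

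Deviations of same-numbered libraries correlated at 0.016 over 602 miRNAs. This value cannot exclude a pairing by replicate number, and both miR-27 5p to 3p ratios were higher in replicate 2 of each group. With the replicate block edgeR called 102 higher and 34 lower over all miRNAs and 4 cluster members lower.

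Among the ratios, directions turned on the authors' log2 values for miR-27a-5p over miR-27b-5p (0.25, a pair added after the data were seen), miR-27b-5p over miR-27b-3p (-0.96), miR-24-2-5p over miR-24-3p (-0.57), miR-24-1-5p over miR-24-3p (-0.051) and miR-3074-5p over miR-24-3p (-0.28). The cause was not tested. Without a library the difference ranged from -0.38 to 0.058 for miR-27a-3p over miR-27b-3p, from -0.91 to 0.23 for miR-27a-5p over miR-27a-3p, from -0.47 to 0.73 for miR-27b-5p over miR-27b-3p, from -0.039 to 0.77 for miR-24-2-5p over miR-24-3p and from -0.62 to 0.0023 for the chromosome 19 over the chromosome 9 sum. Depth limits miR-24-1-5p most, at 5 to 9 reads per library.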

Other observations

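In the deposited table the listed positions of the miR-3074 arms are interchanged relative to RefSeq. Counted from the start of miR-24-1-5p, miR-3074-5p starts at -2 and miR-3074-3p at 36 in the table, but at 36 and -3 in RefSeq, while miR-24-3p starts at 37 in both. The sequences listed for both arms equal those of RefSeq, and each was read as its name says here. The authors' log2 values had the same highest value in all 4 libraries.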
